A study of Mus musculus with 12 samples.

Results

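The comparison sets 4 RNA sequencing libraries of mouse brown fat from severe cold, 6 °C, against 4 from thermoneutrality, 30 °C. These are 8 of the 12 libraries of the series, taken by the temperature letter of their columns in the table of raw read counts, and all genes of the table entered the fit. The other 4 libraries come from 22 °C and give side values and a share of the fit's estimate of spread. Every mouse was a wild-type C57BL/6J animal that was 10 weeks old at the start and 14 weeks old at the end of its 4 weeks at the given temperature, per the labels. No drug, transgene or deletion is named, so the labels separate the groups by temperature only. Each library holds the total RNA of the interscapular depot of 1 mouse. Mice are numbered 1 to 4 at 6 °C. At 30 °C they are mice 1 and 2 and mice A and B, whose columns carry the 30 °C letter with a number that matches no title of the group.

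Brown fat makes heat by burning fuel in mitochondria, and sympathetic nerves that release noradrenaline switch it on in the cold. A brown adipocyte that works for weeks also has to build mitochondria, renew its proteins, take up iron and oxygen and answer to its neighbours. The depot holds endothelial cells, pericytes, fibroblasts, immune cells and nerve fibres beside the adipocytes, and messenger RNA of all of them enters the same library. The values below describe genes outside fuel metabolism and the standard thermogenic set.

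Library totals ran from 20868184 to 32513051 counts, and levels are given as TMM-normalised CPM, each library's counts scaled to a common total, in the order of mice 1, 2, A and B at 30 °C and mice 1 to 4 at 6 °C. The 12 brown adipocyte markers, among them Ucp1, Cidea and Ppargc1a, summed to 11888 to 13906 CPM at 30 °C and to 24656 to 27048 at 6 °C, and no marker was at 0. Of these markers 8 were higher at 6 °C (5 without 30 °C mice A and B) and 1, the adipokine gene Adipoq, was lower. The other 3, Cidea among them, were not called, and the log2 fold changes of the 12 ran from -0.78 to 2.87. Markers of other cells were also present. The 12 fibroblast and preadipocyte markers summed to 2881 to 5446 CPM at 30 °C and 991 to 1227 at 6 °C, and 10 of them were lower. The 12 endothelial markers summed to 1517 to 1796 and 1030.3 to 1119.8 CPM. The 12 T and natural killer cell markers summed to 13 to 24.7 and 2.1 to 4.85 CPM. The 14 macrophage markers summed to 554 and 561 CPM in 30 °C mice 1 and 2, 1441 and 1749.7 in mice A and B, and 258 to 511 at 6 °C. The 16 skeletal muscle markers were uneven in both groups, with 1112 to 5893 CPM at 30 °C and 104 to 2200.4 at 6 °C, and none of them was called. In bulk tissue, fewer cells of a type and less RNA per cell cannot be told apart.

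**Figure D1:**
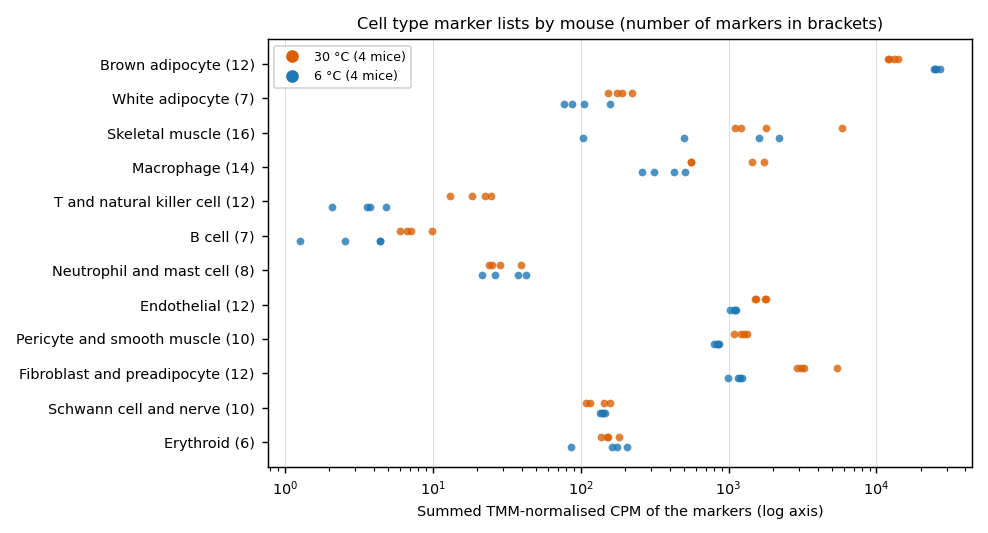
Summed TMM-normalised CPM of cell type marker lists (log x axis), 1 point per mouse, orange for 30 °C and blue for 6 °C, 4 mice each. Brown adipocyte markers lie higher at 6 °C in all 4 mice, fibroblast, endothelial, pericyte and T cell markers lie lower in all 4, and the macrophage points of 30 °C mice A and B stand apart from those of mice 1 and 2.

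A gene is said to have risen or fallen where edgeR's quasi-likelihood test gave an adjusted p under 0.05, with the Benjamini-Hochberg adjustment running over the 14870 genes tested. By that rule 56.8% of all genes changed: 25.3% were higher at 6 °C and 31.5% were lower, with a median log2 fold change of -0.11 over all genes. The ranges of the groups did not overlap for 24.1% of genes with 6 °C above and 27.4% with 6 °C below. With a change of at least 2-fold as a further demand, 5.86% were higher and 12.4% lower. A count of called members of a gene group therefore has to be read against these shares. Scaling by total counts alone shifts every log2 fold change by about -0.32 and turns the split from 3767 higher and 4677 lower genes to 1939 higher and 7888 lower. Upper-quartile scaling gives 3336 higher and 5276 lower, and a correction for gene length and GC gives 4345 higher and 4040 lower. Changes are therefore relative to the bulk of the genes. Of 37 gene lists, those for building and maintaining mitochondria and for the proteasome lay furthest to the higher side, and those for antigen presentation, complement and imprinted genes furthest to the lower side, by their medians.

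**Figure D2:**
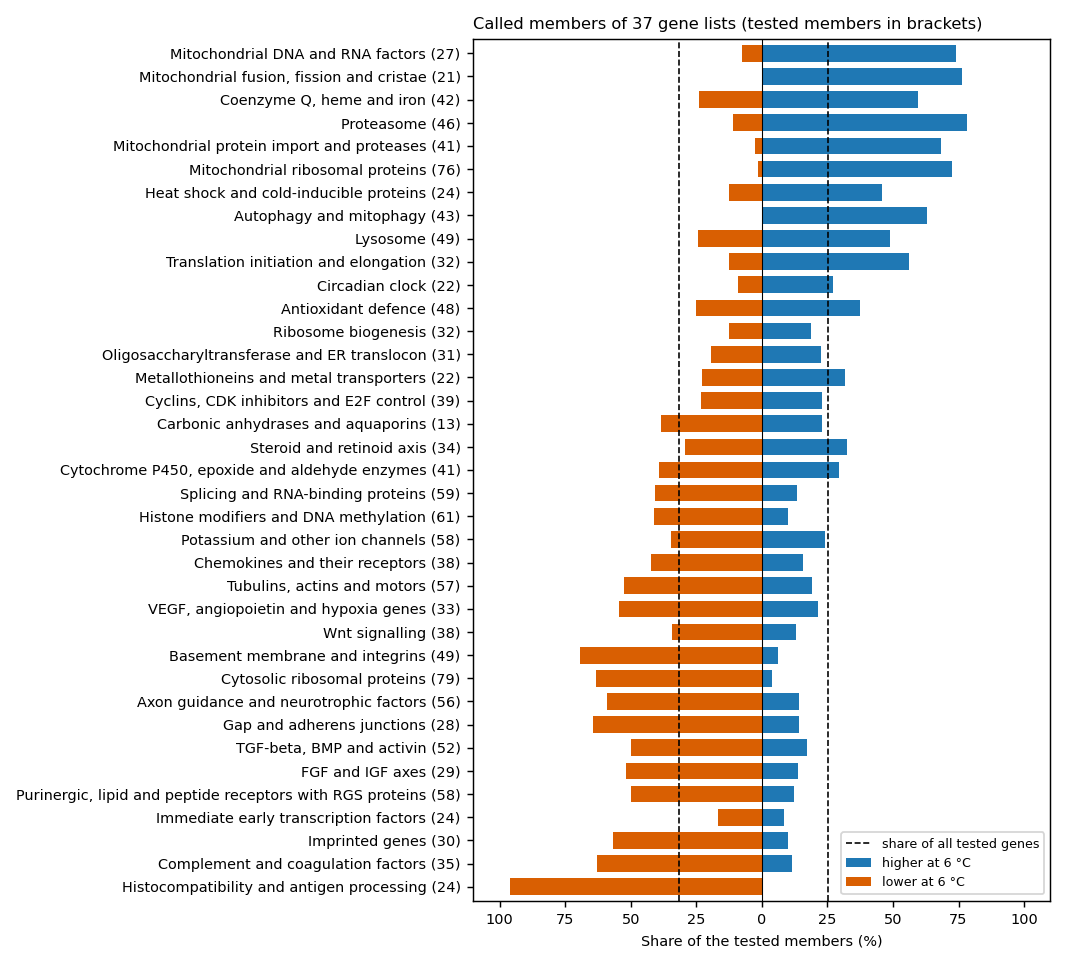
Share of the tested members of each gene list that was called higher (blue, right) or lower (orange, left) at 6 °C, ordered by median log2 fold change, with tested members in brackets. Dashed lines mark the shares over all tested genes, 25.3% higher and 31.5% lower, which a list has to be read against.

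The largest rises outside the thermogenic set were in genes of unlike kinds. Hephl1, on chromosome 9 at 15051841 to 15112108 of GRCm38, encodes a membrane copper oxidase related to hephaestin. Its level was 0.542, 0.402, 0.0599 and 0.126 CPM at 30 °C and 11.9, 43.2, 14.8 and 39.4 CPM at 6 °C. Every 6 °C mouse lay above every 30 °C mouse, and the fitted rise was 99.1-fold, a log2 fold change of 6.63 with an SE of 0.85 (adjusted p = 9.4e-05). The 30 °C values rest on 2 to 16 counts per library, and the log2 fold change is 5.84 without mice A and B. Adcy10, the soluble adenylyl cyclase that makes cyclic AMP in answer to bicarbonate, had 0.915, 0.322, 0.18 and 0.41 CPM at 30 °C and 34.7, 37.7, 42.1 and 45.8 CPM at 6 °C. That is an 87.5-fold rise with a narrow spread in the cold (adjusted p = 7.8e-07), and the log2 fold change of 6.45 (SE 0.44) was 7.04 without 30 °C mouse 1. Mfsd2a, which carries lysophosphatidylcholine with long-chain unsaturated fatty acids into cells, went from 0.271 to 1.09 CPM across 30 °C mice to 6.37, 48.8, 33.3 and 62.4 CPM. The groups did not overlap, though mouse 1 at 6 °C stayed far under the others.

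Genes known best from other tissues were in the same set. Hcn2, a channel of the pacemaker current of heart and neurons, had 2.13, 2.49, 1.74 and 2.65 CPM at 30 °C and 34.6, 44.5, 40.1 and 45.1 CPM at 6 °C, an 18.2-fold rise (log2 fold change 4.19, SE 0.23, adjusted p = 7.3e-08). At 22 °C its mean was 2.88 ± 1.07 CPM (SD, n = 4), not called against 30 °C (adjusted p = 0.212). Cend1, a neuronal gene of cell cycle exit, had the same shape, with 0.913 ± 0.197 CPM at 30 °C, 1.49 ± 0.552 at 22 °C and 12.8 ± 1.83 at 6 °C. For Adcy10 the means were 0.456 ± 0.32, 6.56 ± 3.09 and 40.1 ± 4.87 CPM at 30, 22 and 6 °C, so that each step was upward. Aspg, an asparaginase, rose 32.2-fold to 529, 437, 531 and 519 CPM. Sorl1, a sorting receptor that moves membrane proteins between Golgi and endosomes, rose 17-fold, from 23.5, 12.9, 16 and 16 CPM to 266, 258, 294 and 346 CPM (adjusted p = 7.9e-07).

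The other members of the 15 largest rises ran between 14.7-fold and 38.1-fold. They were Ttc25, a part of the docking of dynein arms in cilia, and Ncan, the brain proteoglycan neurocan. Marc1, a molybdenum enzyme of the outer mitochondrial membrane, and Adprhl1, a relative of the ADP-ribosyl hydrolases, rose 28.4-fold and 24.6-fold. Atp4b, the beta subunit of the gastric proton pump, rose 20.7-fold from 2 to 38 counts per library at 30 °C, and Rims4, a gene of synaptic release sites, 16.7-fold. Arhgef19 encodes a guanine nucleotide exchange factor and Tfr2 a transferrin receptor. Without 30 °C mouse 1 the log2 fold change was larger for Ttc25 (5.89 for 5.25), Marc1 (5.60 for 4.83), Adprhl1 (5.53 for 4.62) and Atp4b (5.64 for 4.37), and for Atp4b it was 3.52 without mice A and B.

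**Figure D3:**
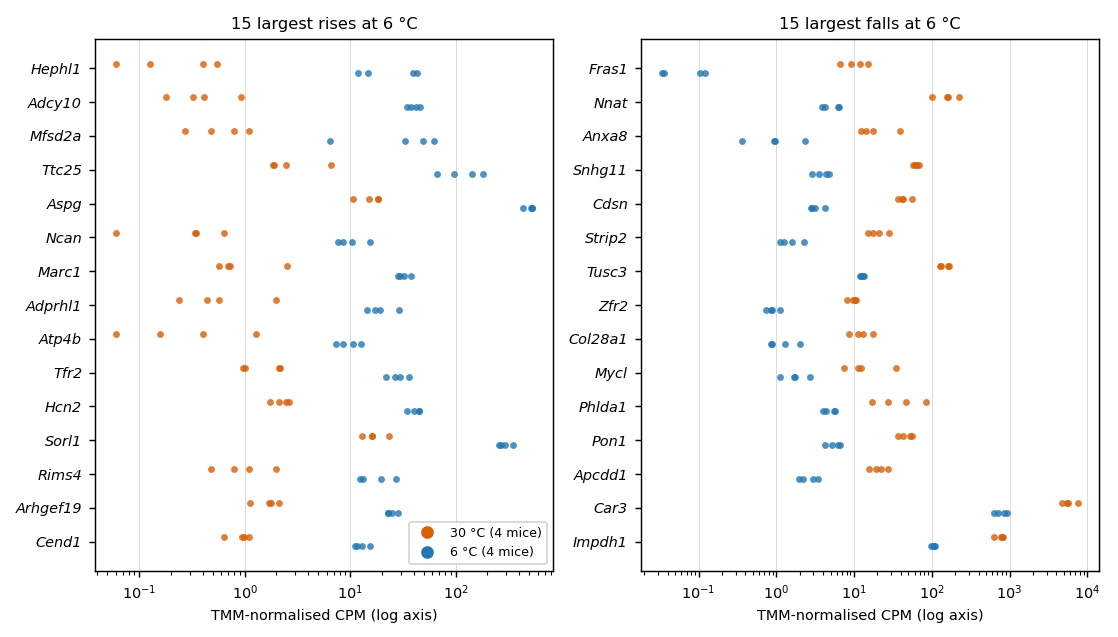
TMM-normalised CPM (log x axis) of the 15 largest rises and the 15 largest falls outside fuel metabolism and the thermogenic set, 1 point per mouse, orange for 30 °C and blue for 6 °C. The naming rule asked for ranges that do not overlap, so the gap in each row was set by the choice; the width of the gap differs, from Hephl1 and Fras1 to Impdh1.

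Among the largest falls, Fras1, an extracellular protein that anchors epithelia to the underlying matrix, stood first. It lies on chromosome 5 at 96373955 to 96784728 of GRCm38. Its level was 6.67, 15.1, 11.9 and 9.2 CPM at 30 °C and 0.122, 0.0334, 0.0354 and 0.105 CPM at 6 °C, the latter from 3, 1, 1 and 2 counts. The groups lay far apart, and the fitted fall was 146-fold (log2 fold change -7.19, SE 0.60, adjusted p = 1.7e-06). Frem1, its partner in the same matrix complex, was also lower, at 0.513 ± 0.0725 CPM against 0.0686 ± 0.0542 (log2 fold change -2.83, SE 0.56, adjusted p = 8.5e-04). Cdsn, a skin adhesion protein, fell from 36.6 to 55.7 CPM to 2.78 to 4.21 CPM. Col28a1, a minor collagen of nerve sheaths, fell 9.95-fold.

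Other large falls lay in regulators and enzymes. Snhg11, a host gene of small nucleolar RNAs, went from 68, 64.6, 57.6 and 61.5 CPM to 3.49, 4.78, 2.87 and 4.35 CPM, 16.3-fold lower. Impdh1, an enzyme of guanine nucleotide synthesis, went from 777, 814, 807 and 640.2 CPM to 109, 107, 103 and 96.4 CPM, 7.31-fold lower (log2 fold change -2.87, SE 0.21, adjusted p = 6.5e-07). Its paralog Impdh2 fell as well but by less, with 3.18 ± 0.221 CPM at 30 °C and 1.89 ± 0.206 at 6 °C (log2 fold change -0.74, SE 0.16, adjusted p = 0.00175). Car3, a carbonic anhydrase that is among the most abundant adipocyte proteins, fell 7.57-fold to 848, 919, 706 and 637 CPM. At 22 °C Car3 had 7658 ± 1997 CPM against 5883 ± 1215 at 30 °C, not called (adjusted p = 0.119). The values of 22 °C mice 1 to 4 were 6557, 6911, 10642 and 6522 CPM. The library of 22 °C mouse 3, the highest, held 86438386 counts, against 18290162 to 23630800 in the rest of its group. Pon1, the paraoxonase of plasma lipoproteins, was also lowest at 6 °C, with 46.7 ± 8.37 CPM at 30 °C, 36.1 ± 10.5 at 22 °C and 5.59 ± 1.1 at 6 °C.

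Mycl, a Myc family transcription factor, fell 9.11-fold, and 30 °C mouse A stood highest at 34.9 CPM; without that mouse the log2 fold change went from -3.19 to -2.51. Its relative Myc fell 3.9-fold, from 21.2, 13.1, 12.9 and 14.1 CPM to 6.13, 3.74, 2.97 and 2.89 CPM. Anxa8, Strip2, Zfr2, Apcdd1, an inhibitor of Wnt signals, and Phlda1 complete the 15 largest falls together with Nnat and Tusc3, described below. For Anxa8 the log2 fold change was -4.73 without 6 °C mouse 2 and -4.12 with it. In Phlda1 33% of the exon length lies under a gene on the other strand, and without strand information the reads of both cannot be told apart.

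Iron handling split within families. Of the 42 members of the coenzyme Q, heme and iron list 25 were higher and 10 lower, or 16 and 13 with total-count scaling. The list had a median log2 fold change of 0.41 (0.09 with total-count scaling), against -0.11 over all genes. Its 13 coenzyme Q genes gave 11 higher and 1 lower, its 13 heme genes 6 and 5, and its 16 iron genes 8 and 4. Tfrc, the transferrin receptor that brings iron into most cells, had 154, 262, 131 and 238 CPM at 30 °C and 52.7, 71.5, 65.4 and 58.2 CPM at 6 °C, 3.17-fold lower (log2 fold change -1.66, SE 0.29, adjusted p = 6.6e-04). Tfr2, the second transferrin receptor, known for sensing iron in liver, had 2.1, 2.17, 0.959 and 1.01 CPM at 30 °C and 36.1, 21.7, 26.8 and 29.9 CPM at 6 °C, 18.5-fold higher (log2 fold change 4.21, SE 0.42, adjusted p = 1.2e-05). So the paralogs moved in opposite directions, and neither pair of ranges overlapped. The multicopper ferroxidases did likewise. Heph, hephaestin, which oxidises iron on its way out of cells, fell from 25.2, 27.6, 21.7 and 25 CPM to 4.63, 4.98, 3.75 and 4.83 CPM (log2 fold change -2.45, SE 0.28, adjusted p = 1.8e-05), while Hephl1 rose as given above. The smallest p-values of the list lay in Coq3 (2.06-fold higher) and Pdss2 (2.38-fold), both of coenzyme Q synthesis, and in Uros (1.83-fold), of heme synthesis.

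**Figure D4:**
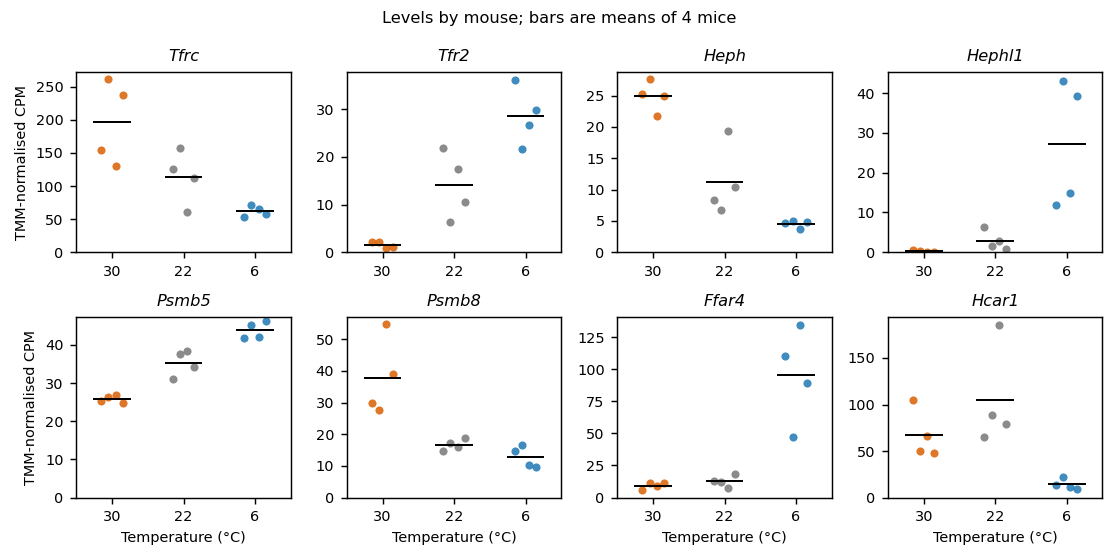
TMM-normalised CPM (linear y axis from 0) of 8 genes at 30, 22 and 6 °C, 1 point per mouse and a bar at the mean of 4 mice. Tfr2, Hephl1, Psmb5 and Ffar4 are highest at 6 °C, and Tfrc, Heph, Psmb8 and Hcar1 are lowest there; Ffar4 and Hcar1 at 22 °C lie closer to the mean at 30 °C than to that at 6 °C.

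Most nuclear genes of the lists for mitochondrial ribosomes, import, gene expression and shape were higher. Of 76 tested mitochondrial ribosomal proteins 55 were higher and 1 lower (2 lower without mice A and B; median log2 fold change 0.39; 25 higher, 12 lower and a median of 0.07 with total-count scaling). Mrpl20, a large-subunit protein, is an example with 40.4, 43.8, 40.7 and 39.8 CPM at 30 °C and 85.5, 99.1, 98.4 and 102 CPM at 6 °C, 2.34-fold higher (log2 fold change 1.22, SE 0.08, adjusted p = 2.0e-07). The groups stood apart with a gap wider than either range. Mrpl38 and Mrpl46 rose 1.89-fold and 2.07-fold. Of 41 genes of protein import and mitochondrial proteases 28 were higher and 1 lower, with a median of 0.41. With total-count scaling 18 were higher and 8 lower, with a median of 0.10. Timm8b, a chaperone of the intermembrane space, rose 2.5-fold, Pmpcb, which removes import signals, 2.26-fold, and Lonp1, the matrix protease, 2.05-fold. Factors that transcribe, process and translate the mitochondrial genome gave 20 higher and 2 lower of 27 (1 lower without mice A and B), with a median of 0.55. With total-count scaling these factors gave 17 higher and 5 lower, with a median of 0.24. By role, 7 of 8 translation factors and 11 of 12 RNA factors were higher (the other 1 was lower), against 2 higher and 1 lower of 7 replication genes. Gfm1, the mitochondrial elongation factor, rose 2.48-fold, Mto1, which modifies transfer RNA, 2.17-fold, and Fastkd2, an RNA-binding protein, 1.95-fold.

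Genes of mitochondrial shape gave 16 higher and none lower of 21 (median 0.46). With total-count scaling 10 were higher and 1 lower (median 0.14). Letm1, an inner membrane protein of ion exchange and cristae, stood out within the list with 158, 156, 145 and 126 CPM at 30 °C and 703, 786, 771 and 789 CPM at 6 °C, 5.21-fold higher (log2 fold change 2.38, SE 0.11, adjusted p = 1.5e-08). Its relative Letmd1 rose 3.22-fold and Phb, a prohibitin scaffold, 1.98-fold.

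The cytosolic ribosome went the other way. Of 79 cytosolic ribosomal proteins 50 were lower and 3 higher, with a median log2 fold change of -0.52 (67 lower, none higher and a median of -0.84 with total-count scaling). Rps7 had 14.7, 13.9, 18 and 16.4 CPM at 30 °C and 9.91, 8.69, 7.71 and 9.39 CPM at 6 °C, 1.77-fold lower, and Rps18 and Rps24 fell 1.84-fold and 1.64-fold. Ribosomal protein genes have many processed copies in the genome, and how the authors' counting treated shared reads is not given in the sources used here. Initiation factors did not follow the ribosome: 17 of 24 were higher and 1 lower. Over the whole list of translation factors 18 of 32 were higher and 4 lower (2 lower without mice A and B, and without mouse B alone), with a median of 0.24, which turns to -0.07 with total-count scaling. Eif4ebp2, a repressor of cap binding, rose 2.09-fold, Eif4g1, the scaffold of the cap complex, 1.64-fold, and Eif3c 1.54-fold. Ribosome biogenesis lay under the background shares, with 6 higher and 4 lower of 32 (1 lower without mice A and B, 2 without 30 °C mouse 2 or B or 6 °C mouse 1 or 4). There, Nop56, a small nucleolar ribonucleoprotein, fell 1.85-fold, while the log2 fold changes of Rrn3 (0.52) and Bop1 (0.46) lost their call with total-count scaling (adjusted p = 0.094 and 0.148).

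Splicing regulators of the SR family fell as a set: 10 of 12 were lower and none was higher, with a median log2 fold change of -0.44. Srsf7 had 57.2, 58.8, 51.1 and 61.5 CPM at 30 °C and 31.6, 34, 30.9 and 36.8 CPM at 6 °C, 1.72-fold lower (log2 fold change -0.78, SE 0.10, adjusted p = 2.5e-05). Its ranges did not overlap, and Tra2a and Srsf5 fell 1.63-fold and 1.6-fold. Over all 59 splicing and RNA-binding proteins 24 were lower and 8 higher. Without mice A and B these were 15 and 5, and the 8 also became 5 without mouse A, mouse B or 6 °C mouse 3 alone.

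The proteasome, which degrades tagged proteins, divided by subunit type. All 21 tested regulatory subunits were higher, as were 11 of 14 subunits of the constitutive core, and none of these fell. With total-count scaling the list as a whole had 20 higher and 7 lower of 46 in place of 36 and 5. Psmc4, an ATPase of the cap, had 55, 63.2, 61.2 and 55.4 CPM at 30 °C and 119, 118, 131 and 129 CPM at 6 °C, 2.11-fold higher (log2 fold change 1.08, SE 0.08, adjusted p = 2.6e-07). Psmd14, the deubiquitinase of the cap, rose 1.75-fold, and Psmc2 1.57-fold. The inducible subunits of the immune proteasome fell. Psmb8, Psmb9 and Psmb10 replace Psmb5, Psmb6 and Psmb7 in cells exposed to interferon. Psmb8 had 30, 27.7, 54.7 and 39 CPM at 30 °C and 14.7, 16.5, 10.2 and 9.6 CPM at 6 °C, 2.96-fold lower (log2 fold change -1.56, SE 0.23, adjusted p = 1.2e-04). Its constitutive counterpart Psmb5 had 25.4, 26.3, 27 and 24.9 CPM against 41.7, 45.3, 42.2 and 46.2 CPM, 1.69-fold higher. Psmb9 and Psmb10 fell 3.13-fold and 2.1-fold. Psmb7 rose 1.66-fold, and Psmb6 had a log2 fold change of 0.03 (adjusted p = 0.741), which becomes -0.28 with total-count scaling. Of the interferon-inducible activators Psme1 fell 1.86-fold and Psme2 had a log2 fold change of -0.05. Immune cell markers moved with these genes, as given above, and their part in the fall was not tested.

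The promoters of Psmc4 and Psmd14, the called subunits with the smallest p-values, are shown because both hold the letters GCGCA, any base and GCGC in a row, the core of a nuclear respiratory factor 1 site; the match, on either strand, is in capitals. They are RefSeq promoters of GRCm38.p6 from 250 bases before the start to 50 after it. Psmc4 lies at chr7:28050043-28050342 on the minus strand with the match 169 bases before the start, and Psmd14 at chr2:61711444-61711743 on the plus strand with the match 80 bases before it.
Psmc4: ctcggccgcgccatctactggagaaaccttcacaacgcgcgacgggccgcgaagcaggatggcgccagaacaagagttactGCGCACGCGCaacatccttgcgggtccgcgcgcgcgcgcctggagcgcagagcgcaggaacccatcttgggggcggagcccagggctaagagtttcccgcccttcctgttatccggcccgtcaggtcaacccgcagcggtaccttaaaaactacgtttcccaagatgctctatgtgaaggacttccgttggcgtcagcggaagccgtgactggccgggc
Psmd14: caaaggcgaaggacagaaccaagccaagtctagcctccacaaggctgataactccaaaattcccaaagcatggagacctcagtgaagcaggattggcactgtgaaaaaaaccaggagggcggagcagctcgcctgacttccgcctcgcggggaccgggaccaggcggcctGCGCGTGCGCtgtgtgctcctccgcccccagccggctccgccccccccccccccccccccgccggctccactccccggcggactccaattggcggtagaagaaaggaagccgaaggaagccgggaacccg
On either strand, these letters occur in 6 of the 29 core and regulatory genes that have a promoter in the table and in 0 of 5 immune subunits. They occur in 5.19% of the 27025 genes with a promoter. Among other lists they occur in 13 of 68 mitochondrial ribosomal proteins and 6 of 35 genes of import and proteases. They also occur in 5 of 17 heat shock genes, 5 of 58 cytosolic ribosomal proteins, 1 of 8 class II genes and 0 of 12 class I genes. With T as the free base, they occur in 1 of the 29 core and regulatory genes, against 1.07% of all genes with a promoter. The letters shown are those of 1 of 18 motifs searched, and they are not the most frequent in these 29 genes. The core of a site for ETS transcription factors occurs in 8 of the 29, against 4.31% of all genes with a promoter. A metal response element occurs in 9 of the 29, against 17%. A match describes the letters only.

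**Figure D5:**
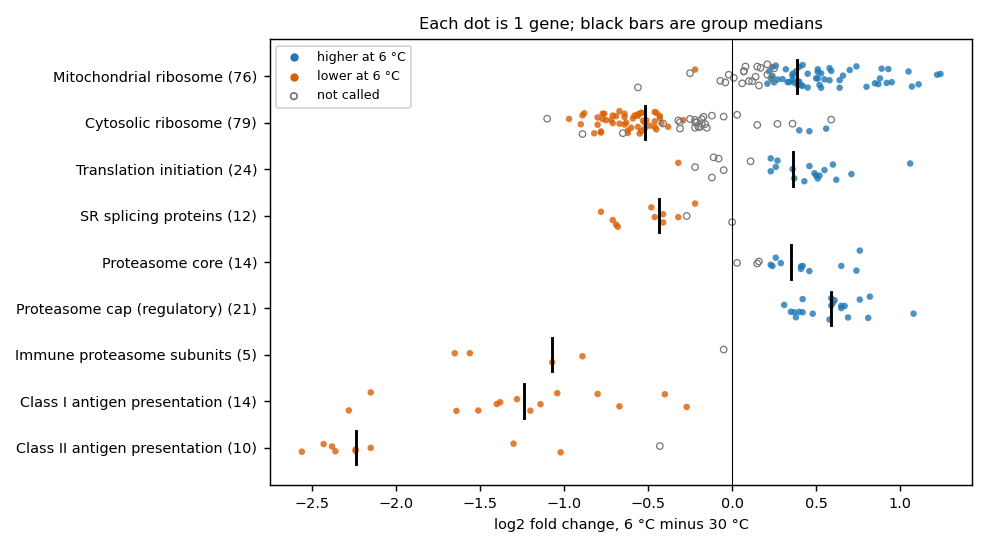
Log2 fold change at 6 °C minus 30 °C of each member of 9 gene groups (dots, 1 per gene; blue higher, orange lower, open not called), with the group median as a black bar and tested members in brackets. The medians of mitochondrial ribosome, initiation factors and constitutive proteasome lie to the right of 0, and cytosolic ribosome, SR proteins, immune proteasome subunits and antigen presentation to the left.

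Autophagy genes, which make the membranes that enclose worn-out organelles, gave 27 higher and none lower of 43 (median 0.28, or -0.04 with total-count scaling, which leaves 8 higher and 7 lower). Bnip3l, a receptor for removing mitochondria, had 49.6, 48.6, 43.8 and 48 CPM at 30 °C and 80.4, 80.4, 91.2 and 81.7 CPM at 6 °C, 1.76-fold higher. Atg4d, which processes the coat of the membrane, rose 2.15-fold, and Atg13, of the starting complex, 1.52-fold. In the lysosome list 12 of 16 proton pump genes were higher, while the 25 hydrolases were near the background shares with 7 higher and 8 lower. The whole lysosome list had 24 higher and 12 lower of 49, or 16 and 17 with total-count scaling. Scarb2, a membrane protein that delivers an enzyme to lysosomes, rose 2.53-fold from 58.8, 54.8, 60.7 and 64.2 CPM to 145, 159, 157 and 142 CPM. Atp6v0e and Atp6v1h of the pump rose 1.97-fold and 1.79-fold. The pump has a paired subunit whose forms differed: Atp6v0d1 rose 1.62-fold, while Atp6v0d2, a form of osteoclasts and macrophages, had 3.08, 6.79, 33 and 34.3 CPM at 30 °C and 3.57 to 6.05 at 6 °C. The high values are those of mice A and B, which also had the high macrophage markers; without them the log2 fold change of Atp6v0d2 goes from -2.14 to -0.16 (adjusted p = 0.791), and the lower members of the lysosome list go from 12 to 5. The call of Atp6v0d2 is also lost without mouse A, mouse B or 6 °C mouse 1, 3 or 4 alone, at log2 fold changes of -1.71 to -2.11.

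Chaperones of the mitochondria and the cytosol were mostly higher or not called. Of 5 mitochondrial chaperones 4 were higher, with a median log2 fold change of 0.81, and of 15 cytosolic ones 7 were higher and 1 lower. The whole list of 24 had 11 higher and 3 lower (median 0.35), or 9 and 7 (median 0.03) with total-count scaling. Hspa9, the mitochondrial member of the Hsp70 family, had 806, 791, 700.0 and 604 CPM at 30 °C and 1561, 1640.3, 1781 and 1734 CPM at 6 °C, 2.32-fold higher (log2 fold change 1.21, SE 0.10, adjusted p = 6.8e-07). Dnaja3, its co-chaperone, rose 2.24-fold and Hsp90aa1, the inducible cytosolic form, 2.84-fold. Other members were not called, such as the heat-inducible Hspa1a and Hspa1b, named after their values were seen. Hspa1a had 11.6, 2.77, 2.13 and 7.28 CPM at 30 °C and 1.95, 3.11, 1.77 and 6.24 CPM at 6 °C, with overlapping ranges (adjusted p = 0.280), and for Hspa1b the adjusted p was 0.404. Cirbp and Rbm3, also named after their values were seen, are RNA-binding proteins known to be induced when cells are cooled. At 6 °C Rbm3 had 19.6, 17, 22.3 and 14.6 CPM against 25.1, 25.6, 24.5 and 28.9 CPM at 30 °C, 1.41-fold lower (log2 fold change -0.50, SE 0.14, adjusted p = 0.00854, or -0.45 and 0.0564 without mice A and B). Cirbp had a log2 fold change of -0.52 (adjusted p = 0.0402), a call lost without 30 °C mouse 2, A or B or 6 °C mouse 2 or 4, at -0.37 to -0.54. Neither gene was higher at 6 °C.

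In the endoplasmic reticulum the paralogous subunits of the enzyme that attaches sugars to proteins went apart. Tusc3, an oxidoreductase subunit of that enzyme, the oligosaccharyltransferase, had 130.4, 165, 160.4 and 129 CPM at 30 °C and 11.9, 13.1, 13.5 and 12.3 CPM at 6 °C, 11.5-fold lower. Magt1, its paralog in the same place of the complex, had 75.4, 70.4, 70 and 61.7 CPM against 71.3, 83.2, 78.5 and 83.7 CPM (log2 fold change 0.19, SE 0.08, adjusted p = 0.0467), with overlapping ranges. That call for Magt1 is lost without any of 6 single mice (30 °C mice 2, A and B, 6 °C mice 2, 3 and 4; log2 fold changes of 0.14 to 0.20), and its direction turns with total-count scaling (-0.12). Of the 31 genes of this list 7 were higher and 6 lower (4 and 3 without mice A and B; 3 lower without 6 °C mouse 1 or 3). Spcs3, of the signal peptidase, fell 1.48-fold, and Srp19, of the signal recognition particle, had a log2 fold change of 0.37, which is 0.06 with total-count scaling.

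Antigen presentation fell across both classes. Of 24 histocompatibility and antigen processing genes 23 were lower and none higher, with a median log2 fold change of -1.39. All 14 class I genes were lower. B2m, the light chain of class I, had 939, 832, 1169.8 and 948 CPM at 30 °C and 342, 427, 319 and 276 CPM at 6 °C, 2.85-fold lower (log2 fold change -1.51, SE 0.13, adjusted p = 1.5e-06). H2-D1 and H2-Q4, heavy chains of class I, fell 2.61-fold and 3.11-fold, and Nlrc5, the transactivator of class I genes, 1.74-fold. Heavy chain genes are near-identical copies of each other, so the split of reads between them is uncertain. Class II genes, which mark antigen-presenting cells and were named, like Nlrc5, after their values were seen, had 9 of 10 lower and a median of -2.24, against -1.24 in class I, a difference that was not tested. H2-Aa had 134, 124, 247 and 266 CPM at 30 °C and 33.1, 37.5, 41.9 and 18 CPM at 6 °C, 5.89-fold lower (log2 fold change -2.56, SE 0.32, adjusted p = 5.9e-05; -1.96 without mice A and B). H2-Ab1, H2-Eb1 and Cd74, the invariant chain, fell 5.39-fold, 4.43-fold and 5.2-fold, and Ciita, the transactivator of class II, 4.72-fold (log2 fold change -2.24, or -1.47 without mice A and B). In each of these genes every 6 °C mouse lay below every 30 °C mouse. Beside them, all 11 tested T and natural killer cell markers and 10 of 14 macrophage markers were lower (7 of 14 without mice A and B). The part of these cells in the fall was not tested.

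The promoters of H2-Aa, H2-Eb1, B2m and H2-D1 are shown because they share a short box at a like distance from the start. The capitals mark GATTGG or its reverse complement CCAATC, the inverted CCAAT letters of the Y box, which is known to bind the factor NF-Y. In the same RefSeq table, H2-Aa lies at chr17:34287774-34288073 (minus strand, match 49 bases before the start) and H2-Eb1 at chr17:34305617-34305916 (plus strand, matches at 60 and 35). B2m lies at chr2:122147437-122147736 (plus strand, 54) and H2-D1 at chr17:35262844-35263143 (plus strand, 53, on the reverse strand).
H2-Aa: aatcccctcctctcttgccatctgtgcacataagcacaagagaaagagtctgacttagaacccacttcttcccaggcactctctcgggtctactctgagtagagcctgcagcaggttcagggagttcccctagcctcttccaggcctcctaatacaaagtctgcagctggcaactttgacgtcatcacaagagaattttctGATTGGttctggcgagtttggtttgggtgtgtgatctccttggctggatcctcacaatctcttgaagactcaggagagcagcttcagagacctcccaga
H2-Eb1: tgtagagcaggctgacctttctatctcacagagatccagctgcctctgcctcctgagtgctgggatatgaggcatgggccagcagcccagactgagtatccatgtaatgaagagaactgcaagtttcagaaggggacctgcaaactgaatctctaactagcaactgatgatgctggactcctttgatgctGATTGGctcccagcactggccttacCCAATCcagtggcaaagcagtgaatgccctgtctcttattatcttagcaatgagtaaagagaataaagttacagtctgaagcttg
B2m: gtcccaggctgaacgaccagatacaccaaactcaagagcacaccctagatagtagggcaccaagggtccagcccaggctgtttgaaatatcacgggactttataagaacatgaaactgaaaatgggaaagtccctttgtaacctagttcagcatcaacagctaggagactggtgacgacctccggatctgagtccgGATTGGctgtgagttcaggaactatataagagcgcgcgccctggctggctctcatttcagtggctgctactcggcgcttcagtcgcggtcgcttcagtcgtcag
H2-D1: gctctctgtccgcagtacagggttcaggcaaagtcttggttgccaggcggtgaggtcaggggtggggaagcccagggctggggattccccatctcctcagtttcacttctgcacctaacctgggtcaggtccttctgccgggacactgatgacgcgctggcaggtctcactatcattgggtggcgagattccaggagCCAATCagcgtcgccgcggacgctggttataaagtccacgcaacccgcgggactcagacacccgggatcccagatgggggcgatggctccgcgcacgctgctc
The letters GATTGG, on either strand, occur in 7 of 8 class II and 9 of 12 class I genes with a promoter in the table, against 18.2% of all genes with one. Among the constitutive proteasome genes they occur in 7 of 29.

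Complement and coagulation genes were mostly lower, with 22 of 35 lower, 4 higher and a median log2 fold change of -0.95. Cfd, adipsin, the adipocyte protease that starts the alternative pathway, had 3215, 2141, 2289 and 2132 CPM at 30 °C and 656, 781, 586 and 659.7 CPM at 6 °C, 3.64-fold lower (log2 fold change -1.87, SE 0.17, adjusted p = 2.2e-06). C1s1, of the classical pathway, fell 2.73-fold, and Serpine2, an inhibitor of thrombin, 4.16-fold. C3, the component on which the pathways meet, went the other way, from 553, 313, 346 and 434 CPM to 944, 1012, 778 and 767 CPM, 2.13-fold higher; it was chosen after its values were seen. Of 38 chemokine genes 16 were lower and 6 higher (11 and 10 without mice A and B). Cxcl9 and Ccl5, which attract T cells, fell 3.92-fold and 6.29-fold. Cxcl12, which holds leukocytes and progenitors in tissue, rose 1.95-fold with 134, 166, 122 and 162 CPM against 269, 265, 338 and 267 CPM, and Ackr3, its scavenging receptor, named after its values were seen, rose 2.96-fold. The monocyte attractants Ccl2 and Ccl7, neighbours on chromosome 11 that were also chosen after their values were seen, rose 5.19-fold and 6.64-fold. Ccl2 had 3.18, 2.73, 6.2 and 4.76 CPM at 30 °C, 35.6, 25.7, 9.45 and 17.4 CPM at 6 °C, and a mean of 0.453 ± 0.0799 CPM at 22 °C. Markers of T and natural killer cells (11 of 11 lower), macrophages (10 of 14) and fibroblasts (10 of 12) moved with the genes that fell, and their part was not tested.

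Growth factor pathways leaned to the lower side. In the TGF-beta, BMP and activin list 26 of 52 were lower and 9 higher (median -0.57). Of its 17 ligands 9 were lower and none higher. Gdf5, a BMP-type ligand, fell from 3.91 to 5.35 CPM to 0.315 to 0.814 CPM, but 40.3% of its exon length lies under a gene on the other strand. Fst, follistatin, which binds and blocks activins, had 18.9, 13.2, 12.1 and 17.6 CPM at 30 °C and 4.06, 3.28, 3.36 and 2.99 CPM at 6 °C, 4.5-fold lower (log2 fold change -2.17, SE 0.16, adjusted p = 3.2e-07). Smad1, which carries BMP signals to the nucleus, fell 2.69-fold, from 28.7, 37.1, 30.3 and 32.5 CPM to 12.3, 11.9, 12.7 and 10.8 CPM. Its relative Smad9 rose 2.38-fold at a low level, 0.611 ± 0.144 against 1.45 ± 0.241 CPM. The 4 Id genes, classical targets of BMP signals named after their values were seen, were all lower: Id1 by 1.92-fold, Id2 by 2.02-fold, Id3 by 3.83-fold and Id4 by 3.39-fold. The call of Id1 is lost without 30 °C mouse B (log2 fold change -0.77, adjusted p = 0.054). For Id1 and Id4 the ranges overlapped, since 30 °C mouse A had low values (35.3 and 2.85 CPM).

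Wnt genes gave 13 lower and 5 higher of 38, near the background on the lower side. Fzd8, a receptor, fell 3.18-fold, while Ryk, a co-receptor, and Znrf3, which removes receptors from the membrane, rose 1.74-fold and 1.93-fold. In the FGF and IGF list 15 of 29 were lower and 4 higher (2 higher without mice A and B), and all 8 called genes of the IGF part were lower. Igf1, the growth factor itself, had 67, 39.2, 56 and 67.6 CPM at 30 °C and 19.6, 25.7, 15.5 and 13.1 CPM at 6 °C, 3.1-fold lower (log2 fold change -1.63, SE 0.30, adjusted p = 8.6e-04). Igfbp7, a binding protein of the vessel wall, fell 1.94-fold. Fgf9 stood against the trend, with 0.44, 0.603, 0.659 and 0.315 CPM at 30 °C and 2.19, 1.7, 2.12 and 2.26 CPM at 6 °C, 4.08-fold higher.

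Among vessel signals more members were lower than higher, and among hypoxia genes more were higher. Of 13 ligands of the VEGF and angiopoietin list 8 were lower and 1 higher, and of 11 receptors 8 were lower and none higher. Of 9 hypoxia genes 6 were higher and 2 lower. Egln3, a prolyl hydroxylase that marks hypoxia-inducible factors for destruction, had 9.42, 7.72, 7.52 and 6.33 CPM at 30 °C and 59.1, 42.8, 72.9 and 70.8 CPM at 6 °C, 7.92-fold higher (log2 fold change 2.99, SE 0.18, adjusted p = 1.2e-07). Egln1, the main enzyme of the family, rose 3.12-fold from 204, 230.3, 212 and 177 CPM to 607, 565, 719.8 and 677 CPM. At 22 °C Egln1 had 232 ± 26.2 CPM. Angpt1, which steadies vessels, fell 6.87-fold from 64.5, 57.3, 46.9 and 38.2 CPM to 6.37, 9.93, 7.33 and 6.35 CPM. Vegfa, the main growth factor of vessels, had overlapping ranges of 619 to 764 CPM and 542 to 939 CPM (log2 fold change 0.10, adjusted p = 0.585). Ligand and receptor of the apelin pair, named like Vegfa after their values were seen, went apart: Apln rose 1.78-fold (log2 fold change 0.83, or 0.52 and adjusted p = 0.112 with total-count scaling) and Aplnr fell 4.93-fold. Endothelial markers were lower at 6 °C as given above, and their part in these falls was not tested.

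Genes that guide and feed nerve fibres were mostly lower, with 33 of 56 lower and 8 higher (median -0.54). Semaphorins and plexins had 14 of 24 lower and ephrins with their receptors 9 of 12. Sema5a fell from 12.1, 11.3, 10.1 and 15.3 CPM to 3.25, 2.67, 3.29 and 2.52 CPM, 4.15-fold lower. The ephrin receptors Ephb1 and Ephb2 crossed: Ephb1 fell 4.07-fold from 3.79 to 5.92 CPM to 0.936 to 1.31, and Ephb2 rose 3.82-fold from 0.629 to 1.29 CPM to 3.33 to 5.19. Ntrk2, the receptor of brain-derived neurotrophic factor, rose 2.25-fold, with 151, 150.4, 158 and 138 CPM at 30 °C and 306, 322, 340.1 and 376 CPM at 6 °C (log2 fold change 1.17, SE 0.09, adjusted p = 3.6e-07). The 10 Schwann cell and nerve markers summed to 108 to 158 CPM at 30 °C and 136 to 146 at 6 °C, so their ranges overlapped.

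Ion channels lay near the background shares, with 14 higher and 20 lower of 58. Kcnk3, a background potassium channel, rose 1.97-fold, Orai3, a calcium channel opened by empty stores, 1.9-fold, and Clcn3, an endosomal chloride exchanger, 1.6-fold. Kcnh2, a potassium channel that ends the heart's action potential and was named after its values were seen, rose 6.15-fold from 0.881, 0.683, 0.39 and 0.536 CPM to 3.61, 3.51, 2.94 and 5.3 CPM. Among 58 receptors and RGS proteins, which shorten G protein signals, 29 were lower and 7 higher (median -0.67). Rgs7 rose 3.15-fold with 14.2, 13.4, 16.5 and 12.9 CPM against 45.4, 39.9, 50.8 and 43.4 CPM. Its relative Rgs11 fell 4.62-fold, and Sctr, the secretin receptor, 3.63-fold. Metabolite receptors of adipocytes, also named after their values were seen, went apart. Ffar4, a receptor of long-chain fatty acids, had 5.83, 11, 9.32 and 11.3 CPM at 30 °C and 110.1, 47.4, 134 and 89.5 CPM at 6 °C, 10.2-fold higher (log2 fold change 3.35, SE 0.38, adjusted p = 3.5e-05). Hcar1, the lactate receptor, had 105, 49.6, 66.5 and 48 CPM at 30 °C and 14, 21.7, 11.3 and 9.44 CPM at 6 °C, 4.75-fold lower (log2 fold change -2.25, SE 0.41, adjusted p = 1.0e-03). At 22 °C Ffar4 had 12.7 ± 4.48 CPM and Hcar1 105 ± 54.5 CPM, neither called against 30 °C (adjusted p = 0.382 and 0.212). For Hcar1 the values of 22 °C mice 1 to 4 were 64.8, 89.1, 185 and 79.4 CPM.

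Imprinted genes, which are expressed from the copy of 1 parent, were mostly lower, with 17 of 30 lower and 3 higher (none higher without mice A and B; median -0.93). Nnat, an adipocyte membrane protein expressed from the paternal copy, had 101, 157, 162 and 221 CPM at 30 °C and 6.46, 4.25, 6.19 and 3.88 CPM at 6 °C, 30.7-fold lower. Ndn, necdin, and Magel2, its relative next to it on chromosome 7, fell 2.92-fold and 16.7-fold; Magel2 rests on 0 to 6 counts per library at 6 °C. The maternally expressed RNAs Meg3, Rian and Mirg of 1 locus on chromosome 12, named after their values were seen, fell 3.03-fold, 2.38-fold and 3.05-fold. Meg3 had 49.4, 66.4, 70.5 and 101 CPM at 30 °C and 24, 24.2, 25.2 and 21.3 CPM at 6 °C. Dcn, the matrix proteoglycan decorin, is on the list but is also a fibroblast marker, and it fell 3.47-fold. The counts do not separate the parental copies, so imprinting of the listed genes in this tissue was not measured. The fibroblast and preadipocyte markers were lower in the same mice, and their part was not tested.

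The scaffold around the cells was lower as well. Of 49 basement membrane and integrin genes 34 were lower and 3 higher (median -0.49), among them 14 of 16 genes of collagen IV and its linkers and 12 of 15 integrins. Itga6, a laminin receptor, had 133, 200.1, 167 and 168 CPM at 30 °C and 82.4, 72.2, 81 and 73.1 CPM at 6 °C, 2.16-fold lower. Itgb5, a vitronectin receptor, and Lamb2, a laminin chain, fell 2.08-fold and 1.85-fold. Of 57 tubulins, actins and motors 30 were lower and 11 higher. The 25 actins and binders held 17 lower and none higher, with Gsn, gelsolin, which cuts actin filaments, 3.29-fold lower at 2384, 2333, 1707 and 2986 CPM against 732, 723, 785 and 624 CPM. Motors pointed both ways, with 6 higher and 5 lower of 13: Kif1c, a kinesin, and Dynll2, a dynein light chain, rose 1.78-fold and 1.86-fold. Of 28 junction genes 18 were lower and 4 higher. Cldn15 and Cdh5, a tight junction and an endothelial adherens junction protein, fell 3.25-fold and 1.62-fold, while Ctnna1, which ties cadherins to actin, rose 2.12-fold from 162, 171, 186 and 169 CPM to 339, 327, 349.7 and 445 CPM. Aqp1, a water channel of vessels, fell 5.79-fold from 493, 764, 697 and 571 CPM to 111, 87.3, 101 and 136 CPM, and Car13, a cytosolic carbonic anhydrase, rose 2.13-fold. In the same mice 10 of 12 fibroblast, 9 of 12 endothelial and 8 of 10 pericyte markers were lower, and their part in these falls was not tested.

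Redox and metal genes held members of both directions, as all tested genes did (25.3% higher and 31.5% lower). Of 48 antioxidant genes 18 were higher and 12 lower, with 7 higher and 3 lower of 10 superoxide and peroxide enzymes and 2 higher and 6 lower of 14 glutathione transferases. Srxn1, which revives oxidised peroxiredoxins, rose 2.5-fold from 39.2, 44.3, 42 and 40.8 CPM to 94.6, 108, 99.7 and 114 CPM (log2 fold change 1.32, SE 0.08, adjusted p = 7.9e-08). Gclm, of glutathione synthesis, rose 2.27-fold, and Mgst3, a membrane glutathione transferase, fell 2.69-fold. Metallothioneins, which bind zinc and copper, rose: Mt1 had 124, 133, 135 and 148 CPM at 30 °C and 284, 289, 265 and 286 CPM at 6 °C, 2.08-fold higher, and Mt2 rose 3.31-fold, though 73.5% of its exon length lies under a gene on the other strand. Atox1, a copper chaperone, rose 1.82-fold and Slc30a9, a zinc transporter, 1.57-fold. Over the whole metal list 7 were higher and 5 lower of 22 (3 lower without mice A and B). Of 3 tested epoxide hydrolases, Ephx1 and Ephx2 rose 2.77-fold and 2.35-fold and 1 was lower. Por, the electron donor of P450 enzymes, rose 1.63-fold, in a list of 12 higher and 16 lower of 41. Retsat, which saturates retinol, rose 2.58-fold in a steroid and retinoid list of 11 higher and 10 lower of 34.

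By their shares of called members, clock, early response and cell cycle genes lay near or under the background. Of 22 clock genes 6 were higher and 2 lower (median 0.10, or -0.22 with total-count scaling), and the 6 became 3 without mice A and B, and without mouse B or 6 °C mouse 3 alone. Bhlhe40, a repressor of the clock that other signals also induce, rose 5.34-fold from 57.8, 21.7, 30.1 and 24.8 CPM to 203, 149, 242 and 124 CPM (log2 fold change 2.42, SE 0.31, adjusted p = 8.2e-05). Clock and Rora had log2 fold changes of 0.49 and 0.53, and both calls are lost with total-count scaling (0.17 and 0.21). Among clock genes named after their values were seen, Per2 had 5.81, 30.3, 9.87 and 46.9 CPM at 6 °C and 8.66 to 17 CPM at 30 °C, and Nr1d1 58.3 to 93.4 and 79.4 to 132 CPM; neither was called (adjusted p = 0.151 and 0.154). Of 24 immediate early genes 4 were lower and 2 higher (1 higher without mice A and B); the 4 ranged from 2 to 9 when single mice were left out (9 without 30 °C mouse A, 8 without 6 °C mouse 1, 2 without 6 °C mouse 3 or 4). The median of the early genes lay well to the lower side, at -0.76 against -0.11 over all genes. With total-count scaling it was -1.06 against -0.43, with 11 early genes lower and 1 higher. Klf6 fell 1.86-fold, while Maff, a small leucine zipper protein, rose 3.55-fold from 5.24 to 9.83 CPM to 20.5, 23.5, 22.7 and 42.4 CPM. Of 39 cell cycle genes 9 were higher and 9 lower. Trp53inp2, a cofactor that also acts in autophagy, rose 2.7-fold, Rbl2, a pocket protein with 21% of its exon length under a gene on the other strand, 1.67-fold, and Cdkn1b, an inhibitor of cyclin kinases, fell 1.51-fold. Of 61 histone and DNA modifiers 25 were lower and 6 higher (16 lower without mice A and B). Kmt5a, which methylates histone H4, rose 2.84-fold from 49.4, 58.9, 60.3 and 47.6 CPM to 146, 151, 147 and 169.7 CPM, Kdm5c rose 1.48-fold, and Hdac7 fell 1.69-fold.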

How the data were processed

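RNA of interscapular brown fat was sequenced from 12 mice, 4 each at 30, 22 and 6 °C. The values are raw counts of reads for 38924 genes, in 1 table that the authors deposited. Per the submitters' processing notes, the tools named are STAR 2.4.2a, edgeR 3.14.0 and FastQC 0.10.1; GRCm38 and mm10 are the builds named. How reads were counted, with which annotation, strand setting and filters, is not given in the sources used here. Gene IDs were matched to the GENCODE annotation (96.6%), and 27 symbols that had the form of dates were restored through it. Genes with too few counts were removed by edgeR's filterByExpr, which left 14870.

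All 3 temperatures were fitted together with edgeR 4.0.16 (TMM, robust quasi-likelihood test, Benjamini-Hochberg adjustment over all tested genes, R 4.3.3), and 6 °C was set against 30 °C. The 2 columns of 30 °C mice A and B match no title by number, so they were placed by their letter. Counts were also simulated for 14870 genes, of which 67 were changed 1.5-fold, 67 2-fold and 66 4-fold, in both directions. Of these changes 38.8%, 83.6% and 90.9% were recovered, with 6 false calls. In the data 56.8% of genes were called, far more than were changed there. These rates therefore do not give the recovery or the false calls of the comparison itself.

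The 37 lists (1484 tested genes) and the members named were chosen with earlier results of these data known. Genes named are the 15 largest changes in each direction (mean of at least 5 CPM, adjusted p under 0.05, ranges not overlapping, outside 442 fuel and thermogenic genes). Also named are the 3 called members of each list with the smallest p, and paralogs or partners of all these genes. Of the 3 in the steroid and retinoid list only Retsat is named. Any other gene is said to be chosen after its values were seen. Alternatives were scalings, filters, DESeq2 1.42.0, limma 3.58.1 voom, the replicate block, a muscle covariate and leaving out mice. In RefSeq promoters, 18 motifs were searched. At 20868184 to 32513051 counts per library, the spread between mice, not counting error, limits most values, and all p-values measure spread over 4 mice a group.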

Additional observations from a re-analysis of the deposited data

Results flagged for a closer look

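In 368 groups of 4 mice, for 184 genes named at 30 or 6 °C, 20 had a highest or lowest mouse whose gap to the next mouse, divided by the range, exceeded Dixon's critical value for 4 samples. Chance flags about 1 in 20 groups, so this number is close to what chance gives. At 30 °C, mouse 1 was the highest for Ttc25 (6.61 CPM), Marc1 (2.54), Atg13 (39.7), Serpine2 (65.6), Cfd (3215) and Myc (21.2). Mouse A was the highest for Per2 (17 CPM) and the lowest for Id4 (2.85). Mouse B was the lowest for Dnaja3 (151 CPM) and Ephx2 (222). At 6 °C, mouse 1 was the lowest for Psmb7 (171 CPM) and Ephx1 (49.2). Mouse 2 was the lowest for Aspg (437 CPM) and the highest for Id3 (41.5). Mouse 3 was the highest for Bnip3l (91.2 CPM), Cxcl12 (338) and Gclm (85.3) and the lowest for Itgb5 (41.9). Mouse 4 was the highest for Hspa1b (15.5 CPM) and Maff (42.4).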

How the results depend on the processing

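The count of genes higher at 6 °C was 3767 and of genes lower 4677. With total-count scaling these were 1939 and 7888, with a demand of at least 2-fold 871 and 1845, and in a fit with the replicate block on the 10 libraries that carry a mouse number 2802 and 2869. That fit drops mice A and B, and mice of the same number did not deviate together (r = 0.2 and -0.15), so the pairing is a number only. RLE scaling gave 4165 and 4213 and the length and GC correction 4345 and 4040, more higher and fewer lower genes, while upper-quartile scaling went the other way, to 3336 and 5276. Leaving out single mice gave 3422 to 3677 higher and 4113 to 4573 lower. Leaving out mice A and B together gave 3206 and 3357. Of the 184 genes named, 184 kept their side of the threshold with DESeq2, 183 with RLE scaling, 175 with total-count scaling (6 calls lost), 173 with the block (10 lost) and 180 without mice A and B (4 lost). The direction turned for Psmb6 (-0.28) and Magt1 (-0.12) with total-count scaling and for Atp6v0d2 (0.23, adjusted p = 0.683) with the block; the cause was not tested. Genes at a few counts per library, such as Fras1 at 6 °C and Hephl1 at 30 °C, have fold changes that depend on the fit's prior count.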
